A study of Rattus norvegicus with 26 samples.

Results

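Hnf4a, Cebpa, Foxa1, Foxa2, Foxa3, Rxra and Nr1h3 encode transcription factors that hold the hepatocyte's expression programme in place. They were taken by name, with every probe set that the platform's probe table maps to one of them alone, which gave 11 probe sets for these 7 genes, of 4736 genes named in this way on the array. The arrays were made from primary hepatocytes of female Sprague Dawley rats cultured for 48 h with TCDD (2,3,7,8-tetrachlorodibenzo-p-dioxin), PCB 126 (3,3',4,4',5-pentachlorobiphenyl) or the vehicle, 0.5% DMSO. TCDD was given at log10 molar doses of -14, -12, -10, -8 and -6.5 in both pools and at -11 and -9 in pool 2 alone. PCB 126 was given at -12, -10, -8, -6 and -5 in both pools and at -11 and -9 in pool 2 alone. Each of the 2 pools joined the cells of 3 animals, and the 26 arrays comprised 12 of TCDD, 12 of PCB 126 and 2 of vehicle, with 15 arrays of pool 2 and 11 of pool 1. No dose had 2 arrays of the same pool, nothing in the labels says that arrays of a pool came from separate animals, and p-values therefore measure the spread between arrays. The labels do not state the animals' ages.

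HNF4A is a nuclear receptor that binds DNA as a homodimer at promoters of apolipoprotein, clotting factor and P450 genes, and its loss in adult liver is known to lower many of them. C/EBP alpha is a leucine zipper protein of differentiated hepatocytes, and the forkhead proteins FOXA1, FOXA2 and FOXA3 open closed chromatin at liver enhancers. RXR alpha is the shared partner of LXR, FXR, CAR, PXR and the PPARs, and NR1H3, also called LXR alpha, is the oxysterol receptor that pairs with it. TCDD and PCB 126 both act through the aryl hydrocarbon receptor (AhR), which joins ARNT and binds DNA at a GCGTG core. The comparison addressed here is whether the fall of liver P450s with dose was accompanied by a fall of these factors.

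No such fall was detected at the level of mRNA. The 7 factor probe sets bright enough to test were of Hnf4a (3), Foxa2 (1), Foxa3 (2) and Nr1h3 (1). Among them 0 changed with the dose of TCDD, PCB 126 or both together, where 3.1%, 4.25% and 9.18% of all tested probe sets did. With 7 probe sets a count of 0 lies near these shares. In the trend over both chemicals 6 of 23 measured liver P450s fell and 3 rose. In the same trend 8 of 18 measured HNF4A targets fell and 1 rose. With TCDD alone 2 of them fell and 0 rose, and with PCB 126 alone 2 fell and 1 rose. With 1 probe set taken for each of Hnf4a, Foxa2, Foxa3 and Nr1h3, the same 6 P450s fell relative to the factor. That test was chosen with the fall of the P450s known and used the same arrays, so it is no independent support. Cebpa, Foxa1 and Rxra had probe sets below the median of the array's values on all 26 arrays, so these 3 genes are described mainly by their values.

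Promoter windows of the 4 tested factors are shown because the AhR binds DNA at a GCGTG core, and because the factors are known to regulate one another through sites close to their promoters. Each window runs from 250 bases before to 50 bases after the gene's start in RefSeq (build GRCr8), 5′ to 3′ on the gene's strand, and capitals mark the motif matches described below.
Hnf4a, chr3:172605970-172606269, plus strand: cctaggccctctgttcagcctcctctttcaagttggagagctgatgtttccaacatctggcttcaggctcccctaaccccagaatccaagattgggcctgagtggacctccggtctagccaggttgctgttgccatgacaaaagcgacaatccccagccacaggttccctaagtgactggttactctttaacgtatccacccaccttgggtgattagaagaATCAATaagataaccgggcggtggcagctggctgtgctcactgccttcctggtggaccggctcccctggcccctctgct
Hnf4a, chr3:172641586-172641885, plus strand: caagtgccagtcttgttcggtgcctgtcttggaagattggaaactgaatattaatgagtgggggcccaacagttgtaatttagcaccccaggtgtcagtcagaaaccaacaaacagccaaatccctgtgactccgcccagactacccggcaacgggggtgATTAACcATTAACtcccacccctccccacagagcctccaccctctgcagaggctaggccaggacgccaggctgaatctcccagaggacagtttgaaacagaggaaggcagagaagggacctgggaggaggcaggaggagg
Foxa2, chr3:155927459-155927758, minus strand: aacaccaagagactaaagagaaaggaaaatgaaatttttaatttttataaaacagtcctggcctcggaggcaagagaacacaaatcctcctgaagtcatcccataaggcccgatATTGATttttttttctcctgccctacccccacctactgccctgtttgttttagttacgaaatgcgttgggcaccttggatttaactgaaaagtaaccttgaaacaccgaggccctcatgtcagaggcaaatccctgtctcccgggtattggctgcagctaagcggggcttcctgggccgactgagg
Foxa3, chr1:87799436-87799735, minus strand: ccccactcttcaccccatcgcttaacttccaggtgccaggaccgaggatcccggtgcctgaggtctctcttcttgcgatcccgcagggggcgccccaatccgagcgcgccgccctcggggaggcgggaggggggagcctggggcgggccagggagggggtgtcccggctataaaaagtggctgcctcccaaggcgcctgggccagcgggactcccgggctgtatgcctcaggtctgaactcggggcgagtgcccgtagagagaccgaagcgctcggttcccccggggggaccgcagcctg
Nr1h3, chr3:97623180-97623479, minus strand: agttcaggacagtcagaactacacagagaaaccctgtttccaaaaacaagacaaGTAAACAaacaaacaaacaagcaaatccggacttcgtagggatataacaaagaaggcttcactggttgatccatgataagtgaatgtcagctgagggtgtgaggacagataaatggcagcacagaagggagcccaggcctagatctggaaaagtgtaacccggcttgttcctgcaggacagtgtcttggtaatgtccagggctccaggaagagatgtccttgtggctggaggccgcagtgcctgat
Motifs were searched on both strands of 7 windows of 6 members, the 5 shown and 1 each of Cebpa and Rxra. The AhR core GCGTG occurred in 0 of the 7, against 29.7% of all 33469 rat windows of this length. Sequence outside these short windows was not searched, so this count does not show that the genes lack AhR sites. The forkhead motif TGTTTAC, which 3.78% of all windows hold, occurred in the Nr1h3 window at -196 from the start, on the opposite strand. Its variant TGTTTGC (4.88% of windows) was in 0 of the 7. The HNF1 motif GTTAAT (7.45% of windows) occurred 2 times on the opposite strand of the second Hnf4a window, at -90 and -83. The HNF6 core ATTGAT (8.06% of windows) lay at -136 of the Foxa2 window and, on the opposite strand, at -29 of the first Hnf4a window. The C/EBP motif TTGCNNAA (10.6% of windows) was found only in the window of Rxra, and the HNF4 motif CAAAGNCCA (1.81% of windows) in none of the 7. These are matches of letters, and nothing in the arrays measured binding there.

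The values are the deposited log2 expression values. The tested probe sets had mean values over 26 arrays of 5.56, 5.02 and 3.88 for Hnf4a (D10554_s_at, X57133mRNA_at and X57133mRNA_g_at), 5.04 for Foxa2 (L09647_at), 4.65 and 4.45 for Foxa3 (AB017044exon_at and AB017044exon_g_at) and 5.49 for Nr1h3 (U11685_at). A level of one probe set cannot be set against that of another, since each probe set has its own brightness. The median of all values was 3.71, and a probe set was tested where at least 2 arrays exceeded it, which left 5197 of 8740. The X57133mRNA_g_at probe set of Hnf4a was near that limit and exceeded it on 23 of 26 arrays. The first Cebpa probe set (X12752_at) ranged from 1.98 to 2.08 in pool 2 and from 2.06 to 2.16 in pool 1, and the second (rc_AI236300_at) from 0.51 to 0.65 and from 0.61 to 0.72. Of all probe sets other than controls, 8.79% and 0.446% had lower means than these. The Foxa1 probe set (X55955_at) ranged from 2.79 to 3.11 in pool 2 and from 3.11 to 3.36 in pool 1, and that of Rxra (L06482_at) from 1.64 to 2.17 and from 1.77 to 2.10. Their means exceeded 31.8% and 5.80% of the probe sets. The highest Rxra value, 2.17, was that of TCDD at -9 in pool 2, and the next, 2.10, that of TCDD at -8 in pool 1. When all 8740 probe sets were tested, these 4 had slopes between -0.0069 and 0.0084 log2 per decade and did not pass. Cebpa is among the defining factors of hepatocytes, and these 2 probe sets gave no signal above the median, so they carry little information on its mRNA.

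Cyp1a1, the standard readout of AhR activation, had between 11.69 and 12.77 on the 4 arrays of the highest 2 TCDD doses, against 3.28 in pool 2 and 3.45 in pool 1 with vehicle. The array labelled PCB 126 at -12 of pool 2 stood apart, with a Cyp1a1 value of 10.80 against 3.21 in pool 1. Leaving it out changed no call of a factor in the trends. The median of an array averaged 3.58 ± 0.07 log2 over the 15 arrays of pool 2, against 3.85 ± 0.08 over the 11 of pool 1 (± SD). The actin 3′ minus 5′ difference, a measure of RNA integrity and labelling, averaged 1.51 ± 0.22 log2 in pool 2 and 0.82 ± 0.12 in pool 1. Its largest value was 2.19, with TCDD at -11 in pool 2, and the highest array median of pool 2 was 3.78, with PCB 126 at -5. The former array had the lowest TCDD values of pool 2 for Hnf4a (4.73, 4.66 and 3.60) and the highest for Foxa2 (5.63). The latter had the lowest Foxa2 value of pool 2. The part of these array measures in those values was not tested. Of 16 listed hepatocyte markers 14 were measured, and their summed level was 15.85 to 15.97 log2 on the 4 high TCDD arrays and 15.80 to 16.14 on the 4 high PCB 126 arrays, against 15.77 to 15.88 on the vehicle arrays.

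**Figure D1:**
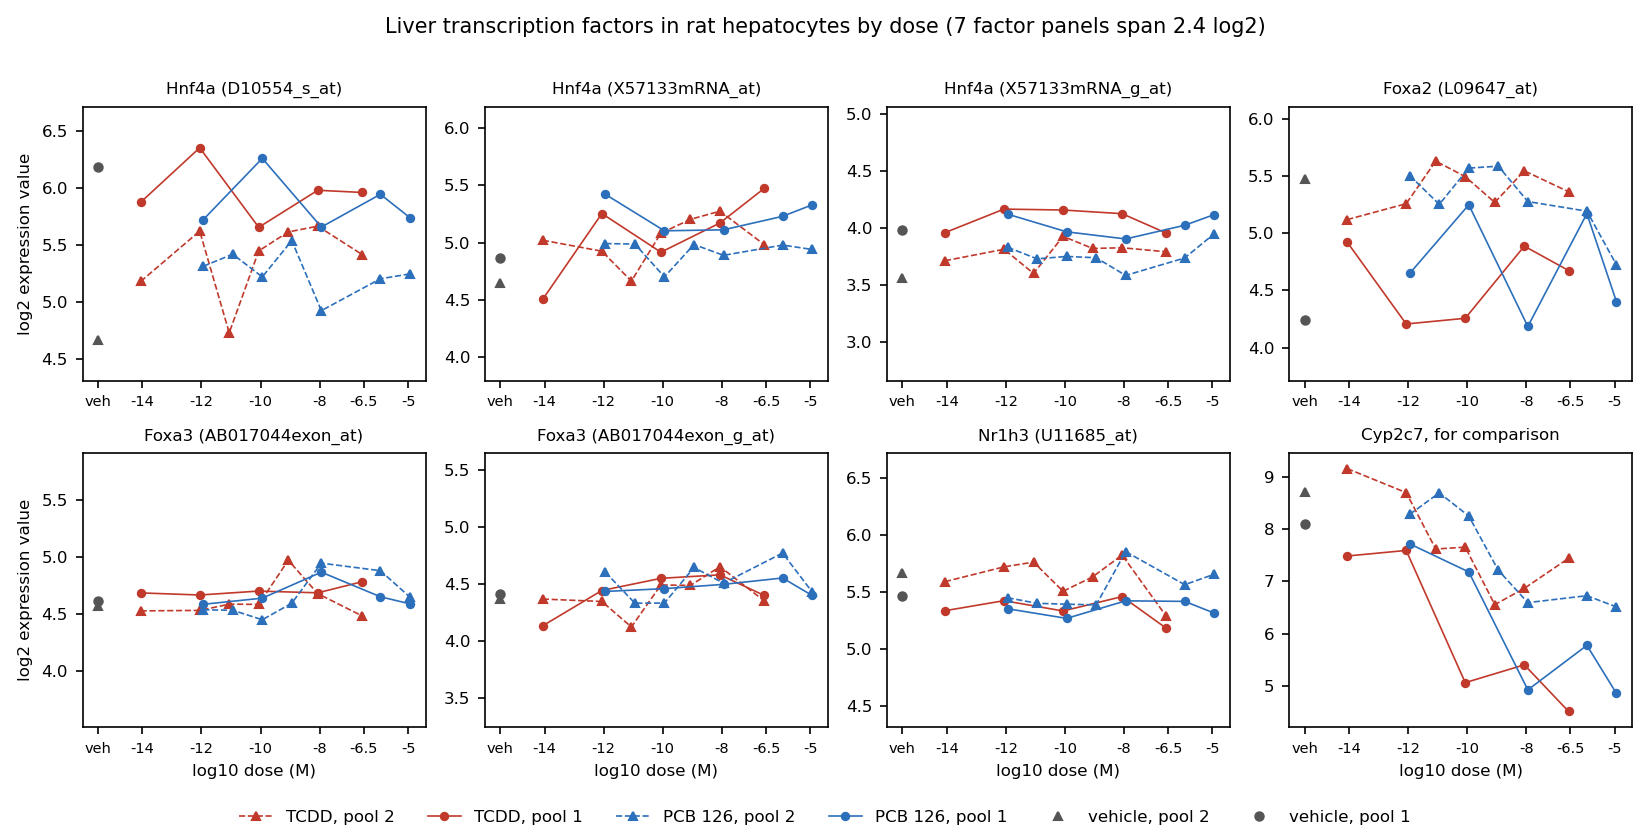
Deposited log2 expression values (vertical axes, all factor panels spanning the same 2.4 log2) against log10 molar dose, with vehicle (veh) at the left, for the 7 tested factor probe sets and for Cyp2c7. Red marks TCDD, blue PCB 126 and grey vehicle, with triangles and dashed lines for pool 2 and circles and solid lines for pool 1; the factor lines show no shared direction, while Cyp2c7 ends lower than it starts in all 4 dose series, on a wider axis.

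The slope with TCDD was positive for all 3 Hnf4a probe sets, and none of them passed the test. With D10554_s_at, pool 2 had 4.67 with vehicle and 5.18, 5.62, 4.73, 5.45, 5.62, 5.67 and 5.42 with TCDD from -14 to -6.5. Pool 1 had 6.19 with vehicle and 5.88, 6.35, 5.66, 5.98 and 5.96 with TCDD at -14, -12, -10, -8 and -6.5. The vehicle array was thus the lowest of its series in pool 2 and the second highest in pool 1. With PCB 126 from -12 to -5 the same probe set had 5.32, 5.42, 5.22, 5.54, 4.93, 5.21 and 5.25 in pool 2 and 5.72, 6.26, 5.66, 5.95 and 5.74 at the doses of pool 1. No order by dose is visible in these series. The slope of D10554_s_at was 0.020 ± 0.034 log2 per decade of TCDD (SE of the limma fit, adjusted p = 0.824) and -0.021 ± 0.034 per decade of PCB 126 (adjusted p = 0.745).

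The second Hnf4a probe set, X57133mRNA_at, had the largest slope of any factor. In pool 2 it had 4.64 with vehicle and 5.02, 4.92, 4.66, 5.08, 5.20, 5.28 and 4.98 with TCDD from -14 to -6.5, and in pool 1 it had 4.86 with vehicle and 4.50, 5.25, 4.92, 5.17 and 5.47. Both vehicle arrays lay below the 4 arrays of the 2 highest doses, which spanned 4.98 to 5.47. Its slope was 0.062 ± 0.024 log2 per decade of TCDD, upward, with an unadjusted p of 0.0144 and a limma adjusted p of 0.178. The difference between the 2 highest TCDD doses and vehicle was 0.47 ± 0.19 log2 (adjusted p = 0.348). With PCB 126 the slope was 0.0011 ± 0.024 (adjusted p = 0.986). The third, X57133mRNA_g_at, had 3.56 with vehicle and 3.60 to 3.93 with TCDD in pool 2, and 3.98 with vehicle and 3.96 to 4.17 with TCDD in pool 1. Its slopes were 0.0069 ± 0.013 with TCDD and 0.0048 ± 0.013 with PCB 126 (adjusted p = 0.846 and 0.865). It was 0.19 ± 0.08 higher at the 2 highest PCB 126 doses than in vehicle, with an unadjusted p of 0.0391 and an adjusted p of 0.337.

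Foxa2 had the widest spread of the factors. In pool 2 it had 5.47 with vehicle, 5.12, 5.26, 5.63, 5.50, 5.27, 5.55 and 5.36 with TCDD from -14 to -6.5, and 5.51, 5.25, 5.57, 5.59, 5.28, 5.19 and 4.72 with PCB 126 from -12 to -5. In pool 1 it had 4.24 with vehicle, 4.92, 4.21, 4.26, 4.89 and 4.67 with TCDD, and 4.65, 5.25, 4.18, 5.17 and 4.40 with PCB 126. In pool 1 the PCB 126 series alternated between high and low values, the TCDD series was high at its lowest and second highest doses, and the lowest Foxa2 value of pool 2 was that of the highest PCB 126 dose. Its slopes were 0.021 ± 0.036 log2 per decade with TCDD (adjusted p = 0.832) and -0.055 ± 0.036 with PCB 126 (adjusted p = 0.400). With PCB 126 the slope was -0.085 ± 0.050 within pool 2 and -0.020 ± 0.055 within pool 1. The residual SD about the trend model was 0.32 for Foxa2, which 71.7% of the tested probe sets stayed below, against a median of 0.23 over all of them.

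Foxa3 was among the least variable factors, with residual SDs of 0.14 for each of its probe sets. AB017044exon_at had 4.57 with vehicle, 4.48 to 4.97 with TCDD and 4.45 to 4.95 with PCB 126 in pool 2, and 4.62 with vehicle, 4.67 to 4.78 with TCDD and 4.59 to 4.87 with PCB 126 in pool 1. Its highest values with PCB 126 were at -8 in both pools (4.95 in pool 2 and 4.87 in pool 1), and it was lower again at -5 (4.65 and 4.59). Its slopes were 0.013 ± 0.018 with TCDD and 0.025 ± 0.018 with PCB 126, and those of AB017044exon_g_at 0.031 ± 0.018 and 0.011 ± 0.018 (adjusted p between 0.439 and 0.795). All 4 were positive.

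Nr1h3 had 5.67 with vehicle and 5.59, 5.72, 5.76, 5.51, 5.63, 5.83 and 5.29 with TCDD in pool 2, and 5.46 with vehicle and 5.34, 5.43, 5.34, 5.46 and 5.18 with TCDD in pool 1. The highest TCDD dose gave the lowest Nr1h3 value of each pool, and PCB 126 at -5 gave 5.66 in pool 2 and 5.32 in pool 1. The slopes were -0.019 ± 0.020 log2 per decade with TCDD (adjusted p = 0.730) and 0.025 ± 0.020 with PCB 126 (adjusted p = 0.476), and the difference between them, -0.044 ± 0.028, had an adjusted p of 0.578.

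Over all 7 probe sets, 0 passed the threshold (limma, Benjamini-Hochberg adjusted p under 0.05) in the TCDD trend, against 3.1% of all tested probe sets, 0 in the PCB 126 trend, against 4.25%, and 0 in the mean trend of both chemicals, against 9.18%. With 7 probe sets, counts of 0 lie near these backgrounds, so these counts do not set the factors apart from other probe sets. At an unadjusted p under 0.05 the counts were 1, 0 and 0, and the 1 was the upward slope of X57133mRNA_at. Of all probe sets 85 rose and 76 fell with TCDD and 81 rose and 140 fell with PCB 126, and with arrays centred on their medians 69 rose and 34 fell with TCDD and 50 rose and 163 fell with PCB 126. In limma without trend and robust moderation and with centred arrays the counts of factor probe sets called were also 0. The sizes that the data leave possible are given by the 95% intervals over 7.5 decades of TCDD or 7 decades of PCB 126. These intervals take the change as a straight line in log10 dose over the whole range, which was not tested. For TCDD the lower ends of these intervals were -0.37, 0.10 and -0.15 log2 for the 3 Hnf4a probe sets, -0.40 for Foxa2, -0.18 and -0.04 for Foxa3 and -0.45 for Nr1h3. For PCB 126 they were -0.64, -0.34 and -0.16 for Hnf4a, -0.91 for Foxa2, -0.09 and -0.18 for Foxa3 and -0.12 for Nr1h3. For Foxa2 with PCB 126, a fall of up to that size thus lay within the 95% interval.

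Against vehicle, 0 of the 7 passed at the 2 highest TCDD doses (2.25% of all tested probe sets did) and 0 at the 2 highest PCB 126 doses (3.04% did), with 1 of 7 at an unadjusted p under 0.05 in each. Vehicle had 1 array per pool, and its 2 values were far apart for Hnf4a D10554_s_at (4.67 and 6.19) and Foxa2 (5.47 and 4.24). No factor's slope passed the test of a difference between TCDD and PCB 126, with adjusted p between 0.577 and 0.975 and differences from -0.044 to 0.076 log2 per decade, in a comparison that called 0% of all probe sets. The widest interval of such a difference, that of Foxa2, ran from -0.028 to 0.18. At the matched doses -12, -10 and -8, 0 of 7 factor probe sets passed in each case, where 0%, 0.0385% and 0% of all probe sets were called. At -8 X57133mRNA_g_at was 0.23 ± 0.10 log2 higher with TCDD than with PCB 126, with an unadjusted p of 0.0291 and an adjusted p of 1.

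**Figure D2:**
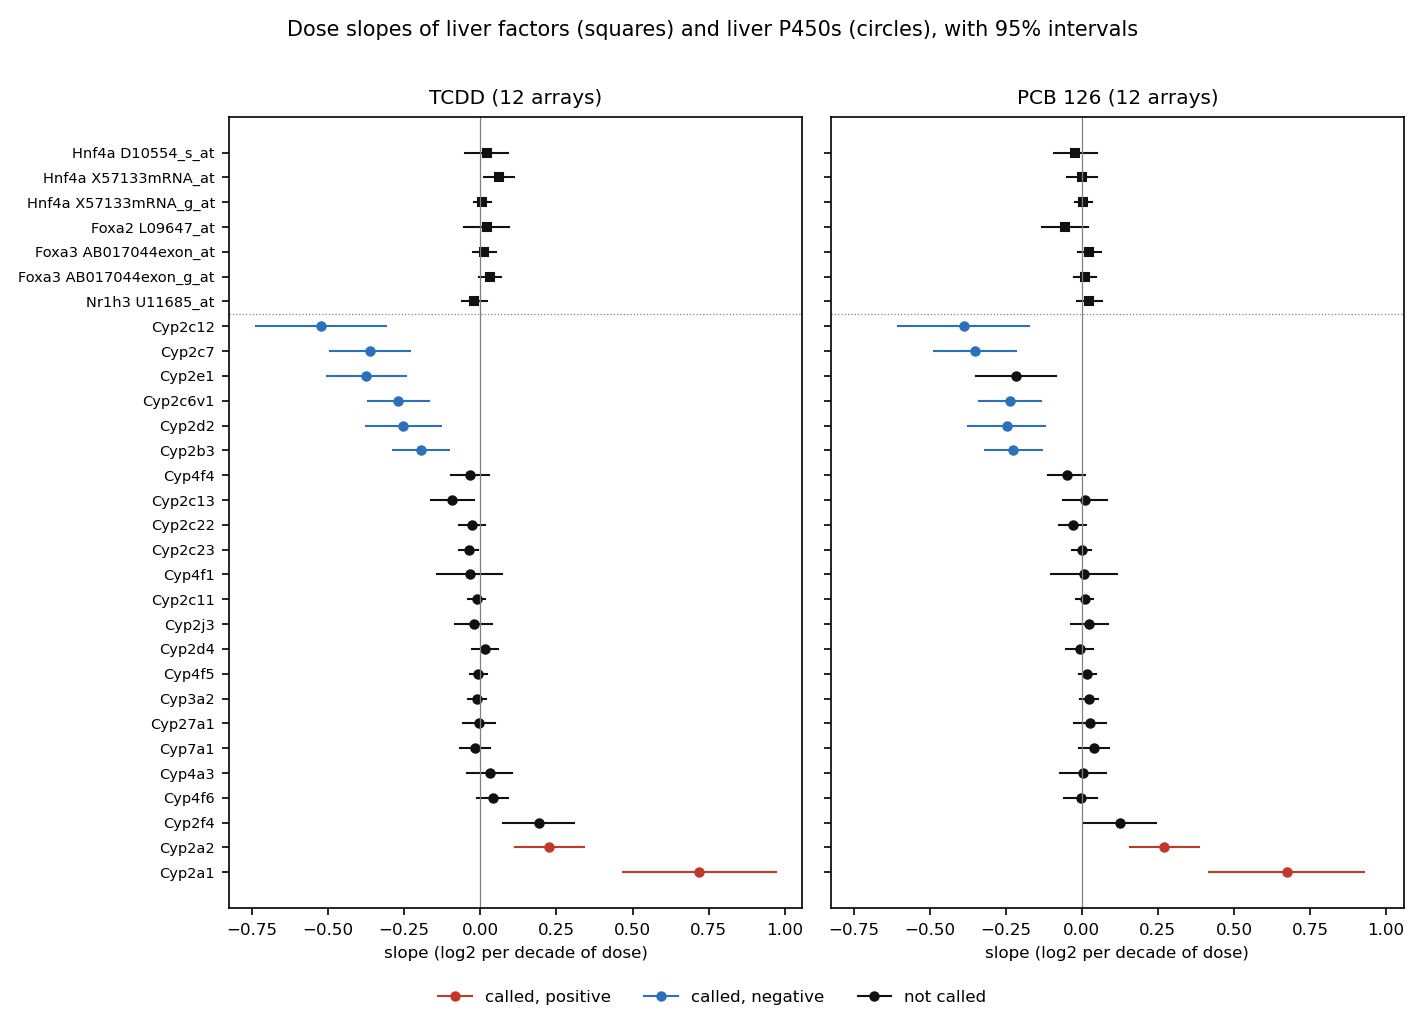
Slopes in log2 per decade of dose (points) with 95% intervals (bars) for TCDD (left) and PCB 126 (right), for the 7 factor probe sets (squares, above the dotted line) and 23 liver P450s (circles); blue and red mark adjusted p under 0.05 with negative and positive slopes. The factor slopes lie between -0.055 and 0.062, while those of the called P450s lie between -0.53 and -0.20 or between 0.23 and 0.72.

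The liver P450s were measured on the same arrays. Of 34 listed, 23 passed the filter, and in the TCDD trend 6 fell and 2 rose, while in the PCB 126 trend 5 fell and 2 rose, where 3.1% and 4.25% of all probe sets were called. The falling count with PCB 126 was 1 without the -12 array of pool 1 and 3 without the -5 array of pool 2, and the rising count with TCDD was 1 without the -14 array of either pool. Those that fell with TCDD were Cyp2b3, Cyp2c6v1, Cyp2c7, Cyp2c12, the female-specific steroid hydroxylase of rat liver, Cyp2d2 and Cyp2e1, the ethanol-inducible P450. The probe sets of all of these but Cyp2b3, like D10554_s_at of Hnf4a, are of a type (_s) that can match more than 1 related transcript. Cyp2c12 had 4.26 to 8.10 on the 4 high TCDD arrays and 6.33 to 7.21 on the 4 high PCB 126 arrays, against 8.93 and 9.56 on the vehicle arrays. Cyp2c7, a retinoic acid hydroxylase, had 4.51 to 7.44 and 4.85 to 6.73, against 8.11 and 8.71 with vehicle. The vehicle values of both genes lay above every high-dose value. In the mean trend the slope of Cyp2c7 was -0.36 ± 0.05 log2 per decade (adjusted p = 2.44e-05), while the slopes of the 7 factor probe sets ran from -0.017 to 0.032. Cyp2a1 and Cyp2a2 rose, so the list did not move one way, and its median slope in the mean trend was -0.0015, beside 0.00026 over all probe sets.

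To test the difference itself, a factor's value was subtracted from every other probe set on each array and the mean trend was fitted again, a test chosen after the data were seen and with the fall of the P450s known. Relative to Hnf4a (D10554_s_at) 6 of 23 P450s fell and 3 rose, where 4.14% of all probe sets were called. The counts were the same relative to Foxa2 (4.62% of all probe sets called), Foxa3 (AB017044exon_at, 9.33%) and Nr1h3 (7.06%). The 6 that fell were the same genes in each case, Cyp2b3, Cyp2c6v1, Cyp2c7, Cyp2c12, Cyp2d2 and Cyp2e1, and the 3 that rose were Cyp2a1, Cyp2a2 and Cyp2f4. The same genes were already called in the mean trend of the same arrays, so these results are not independent of it. Cyp2c7 fell by 0.36 ± 0.04 log2 per decade relative to Hnf4a (adjusted p = 4.65e-09) and by 0.34 ± 0.05 relative to Foxa2 (adjusted p = 2.41e-05). The largest adjusted p of any of the 6 was 0.00517, relative to Foxa2. In each of these fits the same factor values were subtracted from every probe set, so the factor's error is shared by all of them. The SE and adjusted p of these fits rest in part on that shared error. They cannot be set against those of the mean trend, where the SE of Cyp2c7 was 0.05.

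The factors were also set against the P450 level from culture to culture. The P450 level of an array was the mean over the 23 P450s, which mixes the 6 that fell with dose and the 3 that rose, so it is no measure of P450 loss alone. Cyp2a1, 1 of those that rose, had an estimate of -4.92 ± 2.73 log2 per log2 of this level (adjusted p = 0.475). In a fit with pool, 0 of 7 factor probe sets were associated with it, against 2.92% of all probe sets, with 0 of 7 at an unadjusted p under 0.05. The estimates ran from -0.26 to 0.10 log2 of factor per log2 of P450 level, with adjusted p from 0.633 to 0.994. The intervals were wide, from -0.99 to 0.53 for Foxa2 and from -0.19 to 0.38 for Hnf4a X57133mRNA_g_at. With the mean over the Cyp2c, Cyp2d and Cyp2e genes only, 626 of 5197 probe sets were called, against 152 with all 23 P450s, and 0 of the 7 factor probe sets. The smallest adjusted p of a factor was then 0.0888, for Foxa3 AB017044exon_at, whose estimate was negative (-0.14). Without Cyp2a1 and Cyp2a2 in the mean 549 probe sets were called, and again 0 of 7. Within pools, Pearson's r between a factor and the P450 level ran from -0.351 to 0.0742 in pool 2 (n = 15) and from -0.509 to 0.399 in pool 1 (n = 11), and Spearman's rho from -0.386 to 0.0357 and from -0.627 to 0.409. Over these 14 relations the smallest Benjamini-Hochberg adjusted permutation p was 0.901 for r and 0.603 for rho, two-sided. The relation with the smallest p was negative: Foxa3 AB017044exon_at in pool 1 had a rho of -0.627 (permutation p = 0.0431, adjusted p = 0.603) and an r of -0.509 (permutation p = 0.110). Without the 2 arrays farthest from the median P450 level r was -0.492 for this pair, and over all pairs it ran from -0.335 to 0.320 in pool 2 and from -0.492 to 0.646 in pool 1. The high end in pool 1 was that of Hnf4a, with 0.646 for X57133mRNA_g_at, against 0.399 over all arrays of the pool, and 0.609 for D10554_s_at, against 0.242. The arrays of a pool share their animals' cells and the dose series, so these relations hold the effect of dose as well.

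**Figure D3:**
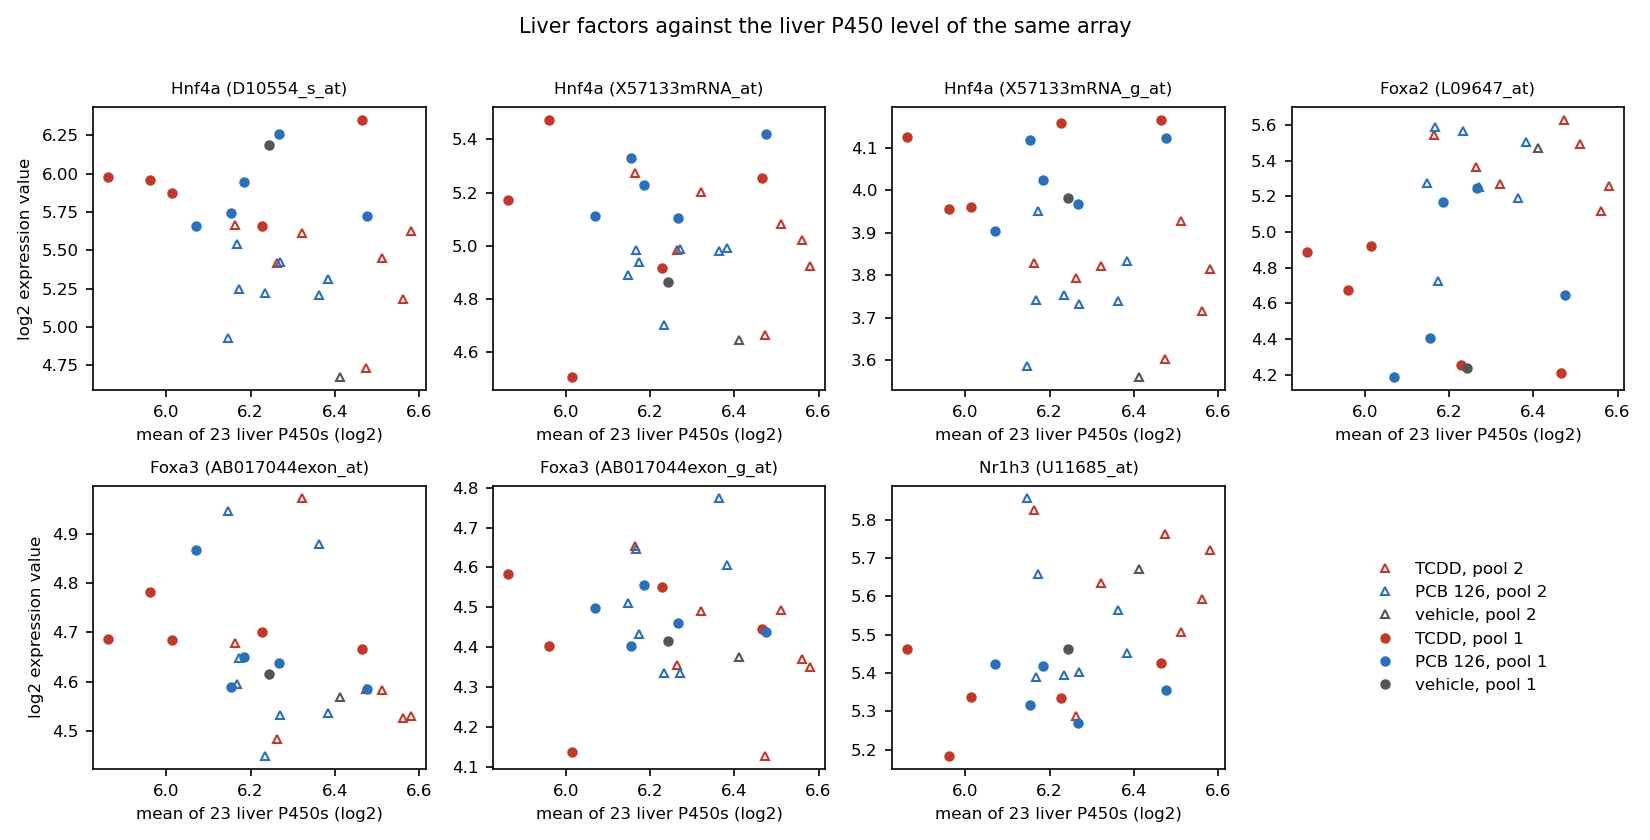
Log2 expression value of each factor probe set (vertical axes) against the mean log2 value of 23 liver P450s on the same array (horizontal axes); open triangles are pool 2 and filled circles pool 1, red for TCDD, blue for PCB 126 and grey for vehicle. Within either pool the points show no common slope, and pool 2 lies mostly lower than pool 1 for Hnf4a D10554_s_at and mostly higher for Foxa2.

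Agreement between probe sets of the same gene passed the test for some pairs in pool 2 and for none in pool 1, and the difference between the pools was not tested. In pool 2 the 3 pairs of Hnf4a probe sets and the pair of Foxa3 had r between 0.478 and 0.803 (n = 15), and D10554_s_at and X57133mRNA_at had r = 0.803 (permutation p = 0.00047, adjusted p = 0.00376 over 8 relations) and rho = 0.671 (permutation p = 0.00768, adjusted p = 0.0307). Without the 2 arrays farthest from the median it was 0.598. In pool 1 the same 4 pairs had r between -0.0333 and 0.275 (n = 11, smallest adjusted permutation p = 0.683). The slope of X57133mRNA_at with TCDD was 0.062, while the other Hnf4a probe sets had 0.020 and 0.0069.

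More probe sets differed between the pools than changed with dose. With chemical and dose in the model, 5 of the 7 factor probe sets differed between pool 2 and pool 1, in a comparison that called 79.8% of all probe sets. Hnf4a D10554_s_at had a lowest, median and highest value of 4.67, 5.32 and 5.67 in pool 2 and 5.66, 5.95 and 6.35 in pool 1, with almost no overlap, and was 0.67 ± 0.12 log2 lower in pool 2 (adjusted p = 1.13e-05). Foxa2 had 4.72, 5.36 and 5.63 in pool 2 and 4.18, 4.65 and 5.25 in pool 1, with overlapping ranges, and was 0.71 ± 0.12 higher in pool 2 (adjusted p = 1.02e-05). Nr1h3 was 0.23 ± 0.07 higher in pool 2 (adjusted p = 0.00414), with 5.29, 5.59 and 5.86 in pool 2 and 5.18, 5.36 and 5.46 in pool 1. X57133mRNA_at and X57133mRNA_g_at of Hnf4a were lower in pool 2 by 0.18 ± 0.08 and 0.29 ± 0.05 (adjusted p = 0.0427 and 3.29e-06), but with each array centred on its median the first was 0.09 higher in pool 2 and no longer passed (adjusted p = 0.370), and the second was -0.015 and no longer passed (adjusted p = 0.716). Foxa3 did not pass as deposited, with -0.04 ± 0.06 and 0.013 ± 0.061, and with centred arrays both its probe sets were higher in pool 2, by 0.23 and 0.28 (adjusted p = 0.00267 and 0.000379). Centring moved the median pool difference over all probe sets to 0.30, against 0.02 as deposited, and the share called to 84.0%, with 2959 probe sets higher and 1409 lower in pool 2, against 2080 and 2065 as deposited. The array medians and the actin measure given above also differed between the pools, and the animals' cells and these measures cannot be told apart. Of markers of other cells, 4 of 6 measured macrophage genes were lower in pool 2 and 1 was higher, and 4 of 7 cholangiocyte genes were higher and 1 lower. Of 9 stellate cell and fibroblast genes 5 were lower and 1 higher, the 1 endothelial gene was lower, and of 14 hepatocyte markers 5 were higher and 4 lower. The summed macrophage level was 7.998 to 9.05 in pool 2 and 7.67 to 8.81 in pool 1, and the part of these cells in the pool differences was not tested. In the test of slopes between pools, 0 of 7 factor probe sets were called for TCDD and 0 of 7 for PCB 126, where 0% of all probe sets were called in either.

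Of 36 other liver transcription factors listed, 20 were measured, and 2 changed in the mean trend, both upward, a share near the 9.18% of all probe sets called. Cebpb, a C/EBP family member induced in inflamed liver, rose by 0.27 ± 0.04 log2 per decade (adjusted p = 5.31e-05), and Ahr itself by 0.13 ± 0.02 (adjusted p = 0.00063). None of the 20 fell, and the median slope was -0.0017. Onecut1, which encodes HNF6, had a mean slope of -0.010 ± 0.022, from 0.057 ± 0.031 with TCDD and -0.077 ± 0.031 with PCB 126. The difference between these slopes was 0.134 ± 0.044 (limma unadjusted p = 0.00555, adjusted p = 0.577). Stat5b, which carries the growth hormone signal to sex-specific P450 genes, had a mean slope of 0.0064 ± 0.0070. The probe sets of Stat5b (mean value 3.52), Hlf (3.43) and Srebf1 (3.27) were dim, below the median of 3.71, and carry little information. Nr3c1, the glucocorticoid receptor, had a mean slope of -0.011 ± 0.010. Onecut1, Stat5b and Nr3c1 did not pass in the mean trend. Of 15 listed members and partners of the RXR family, 6 were measured (Rxrb, Rxrg, Ppard, Nr1h2, Nr1h4 and Rara) and 0 changed in the mean trend or at an unadjusted p under 0.05. Ppara, Pparg, Vdr, Thra, Thrb and Rarb were on the array but too dim to test.

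Among genes called in the mean trend of both chemicals, known targets of HNF4A fell in all but 1 case and those of LXR only fell. Known targets of C/EBP alpha and of FOXA moved in both directions. The trend called 9.18% of all probe sets (186 up and 291 down). In the mean trend 8 of 18 measured HNF4A targets fell and 1 rose, with a median slope of -0.054. Ambp, the precursor of alpha-1-microglobulin, fell by 0.12 ± 0.02 log2 per decade (adjusted p = 0.000222), Slc2a2, the glucose transporter GLUT2, by 0.13 ± 0.03 (adjusted p = 0.00112) and F9, clotting factor IX, by 0.11 ± 0.02, while Apob, the main protein of very low density lipoprotein, rose by 0.17 ± 0.04. Of 11 measured C/EBP alpha targets 4 fell and 2 rose, with a median of -0.043. Cps1, the first enzyme of the urea cycle, fell by 0.18 ± 0.04 and Tat, tyrosine aminotransferase, rose by 0.16 ± 0.03. Of 12 measured FOXA targets 4 fell and 3 rose, with a median of 0.012, and Igfbp1, an insulin-responsive binding protein of insulin-like growth factors, rose by 0.32 ± 0.04. Of 9 measured LXR targets 3 fell and 0 rose, with a median of -0.058, and these were Fasn, fatty acid synthase, by 0.08 ± 0.02, Apoe by 0.06 ± 0.01 and Apoc1 by 0.14 ± 0.04. Fewer targets were called for each chemical alone. With TCDD (3.1% of all probe sets called) 2 HNF4A, 2 C/EBP alpha, 2 FOXA and 0 LXR targets fell, and 1 FOXA target rose. With PCB 126 (4.25%) 2 HNF4A targets and 1 LXR target fell. There 1 HNF4A, 2 C/EBP alpha and 3 FOXA targets rose. The same counts hold genes that stand on more than 1 of these lists, such as Ttr, Otc, Tat, Pck1 and Cps1. The steepest fall among these targets was that of Cps1, at -0.18 log2 per decade, while the 6 P450s that fell had slopes from -0.46 for Cyp2c12 to -0.21 for Cyp2b3.

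**Figure D4:**
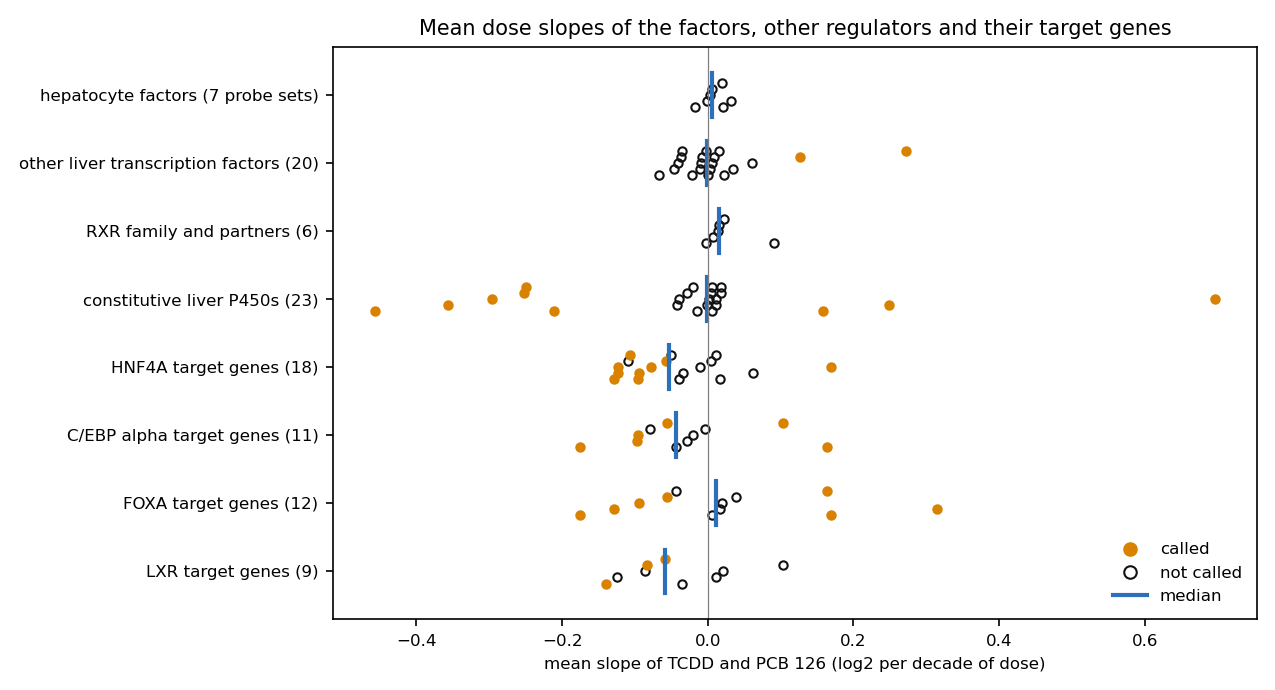
Mean slopes of TCDD and PCB 126 in log2 per decade of dose (horizontal axis) for the factor probe sets and for the measured genes of 7 lists, 1 point a gene, with filled orange points for adjusted p under 0.05 and a blue bar at each list's median. The 7 factor probe sets lie between -0.017 and 0.032 with 0 filled points, whereas the P450, HNF4A, C/EBP alpha and FOXA lists hold filled points on both sides of 0.

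Of the 14 measured hepatocyte markers 4 rose and 4 fell in the mean trend. Markers of other liver cells moved with dose in part. Of 6 measured macrophage markers 1 fell in the mean trend and 1 rose, and their summed level was 7.67 to 8.47 log2 on the high TCDD arrays and 7.93 to 8.31 on the high PCB 126 arrays, against 8.71 to 9.05 on the vehicle arrays. Clec4f and Csf1r, also on the list of macrophage and Kupffer cell markers, were below the filter. Lyz2, the lysozyme of macrophages, fell by 0.18 ± 0.03 log2 per decade, Tagln, an actin-binding protein of stellate cells and fibroblasts, by 0.38 ± 0.07 and Spp1, osteopontin, by 0.08 ± 0.02, and Cd14 rose by 0.10 ± 0.03. Of the other markers, 0 of 1 endothelial, 1 of 9 stellate cell and fibroblast and 1 of 7 cholangiocyte genes passed. In RNA of whole cultures fewer cells of a type and less RNA per cell cannot be told apart, and the part of these cells in the values of the P450s or factors was not tested.

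The genes most like each factor across the 26 arrays, with pool means removed, were named by 1 rule, the 3 genes with the highest Pearson r among 4192 to 4194 candidate probe sets that map to 1 gene and passed the filter. They are a description, since all arrays of a pool share cells and a dose series. For Hnf4a D10554_s_at they were Fn1, fibronectin (r = 0.799), Aldh3a2, fatty aldehyde dehydrogenase (0.793), and Arf3 (0.784). For Hnf4a X57133mRNA_at they were Bcl2l1 (0.785), Aplp2 (0.778) and Cox8a (0.765), and the lists of these 2 Hnf4a probe sets shared no gene. For Foxa2 they were Nap1l1 (0.804), Gnb1 (0.802) and Brcc3 (0.801), and for Nr1h3 Slc27a1 (0.711), Nme6 (0.693) and Tnks2 (0.665). For Foxa3 AB017044exon_at they were Fgfr4 (0.820), Tgm1 (0.803) and Nqo1 (0.765), the last a quinone reductase of the AhR battery. These 3 were dim, with means of 3.04, 3.48 and 2.64, below the median of 3.71, as were Slc27a1 (3.57) and Tnks2 (3.54). For Foxa3 AB017044exon_g_at they were Snap23 (0.764), Cadm1 (0.744) and Ppp1r12a (0.724). For Hnf4a X57133mRNA_g_at they were Sprr1a (0.711), Acadsb (0.690) and Gria3 (0.663). For some of these genes 1 pool carried the likeness. Fgfr4 had an r of 0.891 in pool 2 and 0.291 in pool 1, Nqo1 0.820 and 0.349, and Tnks2 0.731 and 0.156, while Cox8a had 0.362 in pool 2 and 0.920 in pool 1. None of the 23 liver P450s was among the genes named in this way for any of these probe sets.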

How the data were processed

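RNA of 26 cultures was hybridised to 1-colour rat short-oligonucleotide arrays of 8799 probe sets. The authors deposited log2 expression values, 1 column per array. GCRMA 2.8.0 and RMA are named, per the submitters' processing notes, and which of them made the values is not given in the sources used here. Groups, doses and pools came from the labels, and 0 columns were left over. Gene names came from the platform's annotation, and all 7 members matched the current RefSeq gene table by identifier.

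Control probe sets (59) were left out and probe sets above 3.71 log2, the median of all values, on at least 2 arrays were kept (5197). No pseudocount was used. Models were fitted with limma (version 3.58.1, R 4.3.3) by lmFit and eBayes, using the trend and robust options, with Benjamini-Hochberg adjustment over the kept probe sets and a threshold of 0.05. They were a trend model with terms for pool, chemical and log10 dose of either chemical (20 residual degrees of freedom), a model of pool and 15 groups (10), a model with slopes by pool (18) and a model of pool and P450 level (23). In the trend model the 2 vehicle arrays bear on pool and spread only. High doses are the 2 highest of each chemical, with 4 arrays each. Permutation tests used 100000 draws (scipy 1.17.1). In 11 groups with both pools, deviations of same-pool arrays correlated at 0.461 to 0.892 over 55 pairs of groups, and the labels tie each pool to the same 3 animals, so pool was a block. The closest pair of arrays differed by up to 1.97 log2, and no arrays were merged.

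A list gene was represented by its kept probe set with the highest mean. The factors were named with all their probe sets, and list members were named where called or as examples of a known role. Factors and lists were chosen with earlier results of these data known. Alternatives covered the pool term, scaling, filters, doses, arrays left out, moderation and the P450s averaged. Depth does not apply to arrays, and their number limits the precision.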

Additional observations from a re-analysis of the deposited data

How the results depend on the processing

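The count of factor probe sets called with dose, at high doses, between the chemicals' slopes or with the P450 level was 0 under every alternative run, without the replicate block for pool, with centred arrays, without a filter, in single pools, and in the fits that left out 1 array (26 for the trends and the P450 level, 6 for the high doses and 1 for the slope difference). Of 1183 estimates of single factor probe sets under alternatives, 1171 were not called in either the main or the alternative fit. Of these 1171, 82 had another sign, and only a called value was counted as reversed. Pool 2 minus pool 1 gave 9 of 11 factor probe sets without the filter, where 7547 of all 8740 were called, and with centred arrays it reversed for Foxa3 AB017044exon_at (0.23) and Hnf4a X57133mRNA_at (0.089). The P450 counts, recomputed under alternatives chosen after seeing the data, depended more on the settings. Without the replicate block 1 P450 fell and 1 rose with TCDD and 1 fell with PCB 126. With arrays of 1 chemical only, 1 rose with TCDD, and with doses of both pools only, or without the highest dose, 3 fell with PCB 126. In pool 2 alone 2 fell and 0 rose with TCDD and 0 rose with PCB 126. In pool 1 alone 0 fell and 0 rose with either chemical, and in the mean trend 2 fell and 1 rose. Leaving out 1 array gave 4 to 6 falling and 1 to 3 rising P450s with TCDD (1 without the -14 array of either pool), 1 to 6 falling and 2 rising with PCB 126 (1 without the -12 array of pool 1, 3 without the -5 array of pool 2), and 6 to 7 falling and 3 rising in the mean trend. Probe sets called ranged from 81 to 257 in the TCDD trend, 53 to 371 in the PCB 126 trend, 371 to 571 in the mean trend and 81 to 218 with the P450 level. Without the replicate block they were 39, 56, 189 and 488. With the P450 level they were 626 for Cyp2c, Cyp2d and Cyp2e only, 549 without Cyp2a1 and Cyp2a2, 420 with centred arrays, 43 with dose slopes added, 19 in pool 2 alone and 0 in pool 1 alone. With vehicle set 1 decade below the lowest dose they were 408 for TCDD and 504 for PCB 126, and with arrays of 1 chemical only 46 and 367. In pool 2 alone they were 12, 110 and 256 in the TCDD, PCB 126 and mean trends, and in pool 1 alone 0, 0 and 54. The PCB 126 trend gave 104 with doses of both pools only and 106 without the highest dose, and the TCDD trend 103 with centred arrays. The high doses gave 27 for TCDD and 39 for PCB 126 without the replicate block, and 66 for TCDD with centred arrays. The cause of these shifts was not tested. Cebpa, Foxa1 and Rxra were limited by dim signal.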
